A study of Mus musculus with 8 samples.

Results

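The NF-kB inflammatory circuit was followed in the liver through 10 genes. They encode the precursor subunits Nfkb1 and Nfkb2 and the subunit Relb, the inhibitors Nfkbia and Tnfaip3, the cytokines Tnf, Il1a and Il1b, and the adhesion molecules Icam1 and Vcam1. They were listed by name, with no threshold on measured values but with earlier results of these data known, and all 10 were among the 25239 symbols of each count file. All 10 also passed the filter on low counts, as did 12977 genes in all.

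The livers came from 8 adult male mice that carried loxP-flanked Smo (Smo fl/fl, Smo tm2Amc/J) in C57Bl6/J, fed for 6 weeks a choline-deficient, amino acid-defined high-fat diet (CDA-HFD), which induces steatohepatitis. At 1 week before sacrifice, 4 control mice received AAV8-TBG-Luciferase and 4 Smo-KO mice received AAV8-TBG-Cre Recombinase; the TBG promoter drives both in hepatocytes. The control mice are labelled WT, but they carried the same floxed alleles, and both groups had the vector and the diet, so neither a healthy liver nor an uninjected one was compared. The methods state an age at injection for chow-fed mice, and none for these. Reads assigned to genes numbered 8203299 to 9999732 in a liver. Whole liver RNA was measured, so that fewer cells of a type and less RNA per cell cannot be told apart, and hepatocyte and immune cell transcripts were summed.

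NF-kB is a family of dimeric transcription factors that wait in the cytoplasm, bound by inhibitors of the IkB family. Signals from TNF, IL-1 or Toll-like receptors activate the IkB kinase, the inhibitor is degraded and the dimer enters the nucleus; the alternative pathway instead processes the Nfkb2 product and frees dimers with RelB. Among the genes then transcribed are cytokines, endothelial adhesion molecules and the pathway's own inhibitors, which end the signal. In steatohepatitis the cytokines come largely from macrophages, whereas hepatocytes and endothelial cells also respond to them.

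The question was whether loss of Smo from hepatocytes altered this circuit in steatohepatitis. On average 9 of the 10 genes were lower in Smo-KO livers, where 50.1% of all tested genes were, but the differences were small. They ranged in log2 fold change from -0.37 for Tnf to 0.0046 for Nfkb2, which turned to -0.0019 with library totals in place of TMM scaling. The median was -0.17, beside -0.00084 over all genes tested, and it was -0.067 without control mouse 2 and -0.084 without Smo-KO mouse 4. In edgeR's quasi-likelihood test the Benjamini-Hochberg adjusted p ran from 0.308 to 0.994 among the 10, so that 0 passed the threshold of 0.05. The background of that call was 0%. In DESeq2's Wald test, which called 1.26% of all genes, 0 of the 10 were called either. At an unadjusted p under 0.05, 1 of the 10, Nfkb1, was lower and 0 were higher, where 7.15% of all genes were lower and 6.7% higher.

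The targeted gene was examined first. Smo, the Hedgehog signal transducer, read 8.17, 8.49, 8.74 and 8.21 CPM (reads scaled to a library of 1000000 reads on genes, with edgeR's TMM factors) in control mice 1 to 4, and 5.67, 3.93, 4.27 and 4.37 CPM across Smo-KO livers 1 to 4. Every Smo-KO liver lay below every control liver, at 54.3% of the control mean. On the log2 scale this was a difference of -0.88 (SE 0.16), for which edgeR's adjusted p was 0.0957, and DESeq2's was 0.00613. An exact permutation test of the 8 values gave a two-sided p of 0.0286, the smallest that 4 against 4 mice allow.

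The promoters are shown before the values, since NF-kB binds DNA at kappa-B letters. RefSeq's promoter windows (GRCm38.p6, the build named in the submitters' processing notes; 250 bases before to 50 bases after a transcript start) were present for 7 of the 10 genes, and those of Vcam1, Nfkb1 and Relb were not analysed here. The kappa-B consensus was searched on both strands, with overlapping matches kept. At least 1 window of 3 of these 7 genes (Nfkbia, Tnfaip3 and Nfkb2) held it, against 9.55% of 27025 genes and 8.46% of 32851 windows. A stricter consensus, the p50-RelA type with a run of T before its last bases, was found in the same 3 genes, against 0.921% of all genes and 0.807% of all windows. No match in the windows of Tnf, Il1a, Il1b and Icam1 says only that these letters are not there. One window per gene with a match is printed to show where the letters stand, 5′ to 3′ on the gene's strand, in capitals where the consensus matched. In Nfkbia (chr12:55492598-55492897, minus strand) the match begins 29 bases before the window's transcript start. In Tnfaip3 (chr10:19015361-19015660, minus strand) the matches begin 125 and 12 bases before it. In Nfkb2 (chr19:46304487-46304786, plus strand) overlapping matches begin 39 and 38 bases before it and another begins 11 bases before it. The windows of Tnfaip3 and Nfkb2 refer to RefSeq starts that lie inside the genes as GENCODE places them, so these matches are within the gene intervals given with their values.
Nfkbia: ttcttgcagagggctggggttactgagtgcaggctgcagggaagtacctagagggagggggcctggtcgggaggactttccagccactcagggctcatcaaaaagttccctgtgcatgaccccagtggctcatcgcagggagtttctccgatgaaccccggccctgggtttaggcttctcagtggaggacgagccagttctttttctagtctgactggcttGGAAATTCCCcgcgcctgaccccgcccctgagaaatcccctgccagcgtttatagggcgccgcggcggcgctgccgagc
Tnfaip3: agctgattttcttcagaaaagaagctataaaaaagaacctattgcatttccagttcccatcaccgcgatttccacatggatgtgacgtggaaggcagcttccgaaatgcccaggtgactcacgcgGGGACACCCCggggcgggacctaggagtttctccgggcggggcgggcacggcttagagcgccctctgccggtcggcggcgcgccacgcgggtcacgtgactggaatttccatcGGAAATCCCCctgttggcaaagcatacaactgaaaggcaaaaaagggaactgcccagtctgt
Nfkb2: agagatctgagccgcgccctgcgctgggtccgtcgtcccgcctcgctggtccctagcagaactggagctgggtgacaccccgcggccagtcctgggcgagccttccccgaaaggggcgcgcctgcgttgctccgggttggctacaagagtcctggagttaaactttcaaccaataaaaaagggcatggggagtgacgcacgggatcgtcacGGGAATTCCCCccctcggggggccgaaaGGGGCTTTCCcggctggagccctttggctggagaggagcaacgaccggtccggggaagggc

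The subunits come first among the 10 genes. Nfkb1 (chr3:135584655-135691547; positions of genes are those of GENCODE M21, GRCm38) encodes p105, the precursor of the DNA-binding subunit p50. It read 64.8, 75.4, 65.0 and 58.7 CPM across controls 1 to 4 and 61.0, 53.8, 55.6 and 53.5 CPM across Smo-KO livers 1 to 4. Control mouse 2 was the highest and Smo-KO mouse 1 lay above control mouse 4, so the groups overlapped, although 4 of 4 Smo-KO livers were below the control mean. The means were 66.0 ± 6.94 and 56.0 ± 3.49 CPM (SD, n = 4 each). The log2 fold change was -0.24 (SE 0.097, 95% interval -0.45 to -0.026), and edgeR's adjusted p was 0.308. The unadjusted p of 0.0305 in edgeR's fit across all genes was 0.119 without control mouse 2, 0.0719 without Smo-KO mouse 2, 0.0549 without Smo-KO mouse 3 and 0.0755 without Smo-KO mouse 4.

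Nfkb2 (chr19:46304320-46312385), the p100 precursor of p52, had nearly equal means of 59.0 ± 9.30 and 59.2 ± 10.7 CPM (SD, n = 4 each). It read 54.9, 72.7, 56.3 and 52.0 CPM across controls 1 to 4 and 63.5, 59.6, 69.4 and 44.4 CPM across Smo-KO livers 1 to 4, with the single highest liver among the controls and the lowest among the Smo-KO livers. Its 95% interval ran from -0.30 to 0.31 on the log2 scale (edgeR's adjusted p 0.994). Nfkb2, like Il1a, Il1b, Icam1 and Vcam1, overlaps annotated genes on the other strand (Psd and AC114539.1 for Nfkb2), and since the strand setting is not given in the sources used here, reads of the partners cannot be told apart. Relb (chr7:19606217-19629438), the partner of p52 in the alternative pathway, read 25.3, 34.2, 32.3 and 26.8 CPM across controls 1 to 4 and 31.4, 27.9, 29.3 and 23.6 CPM across Smo-KO livers 1 to 4. These ranges overlapped almost fully (log2 fold change -0.08, 95% interval -0.35 to 0.19, -0.0025 without control mouse 2 and -0.15 without control mouse 1).

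The inhibitors are themselves NF-kB targets. Nfkbia (chr12:55489410-55492647) encodes IkB-alpha, which retains p50-RelA dimers in the cytoplasm and is resynthesized when they act. It read 110.5, 109.4, 72.2 and 92.0 CPM across controls 1 to 4 and 92.9, 91.5, 92.0 and 74.8 CPM across Smo-KO livers 1 to 4. Smo-KO mice 1 to 3 were nearly equal and mouse 4 lay apart, while control mouse 3 was the lowest of all 8. The log2 fold change was -0.13 (SE 0.13, 95% interval -0.41 to 0.16, edgeR's adjusted p 0.706), and it was -0.054 without control mouse 1 and -0.24 without control mouse 3.

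Tnfaip3 (chr10:19000910-19015657) encodes A20, a ubiquitin-editing enzyme that shuts off signaling from the TNF and Toll-like receptors. It read 19.1, 36.4, 25.1 and 25.5 CPM across controls 1 to 4 and 19.7, 26.9, 27.3 and 17.5 CPM across Smo-KO livers 1 to 4. Both groups held low and high livers, and 2 of 4 Smo-KO livers lay above the control mean. The log2 fold change was -0.22 (95% interval -0.63 to 0.20), and it was -0.026 without control mouse 2 and -0.35 without control mouse 1.

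**Figure D1:**
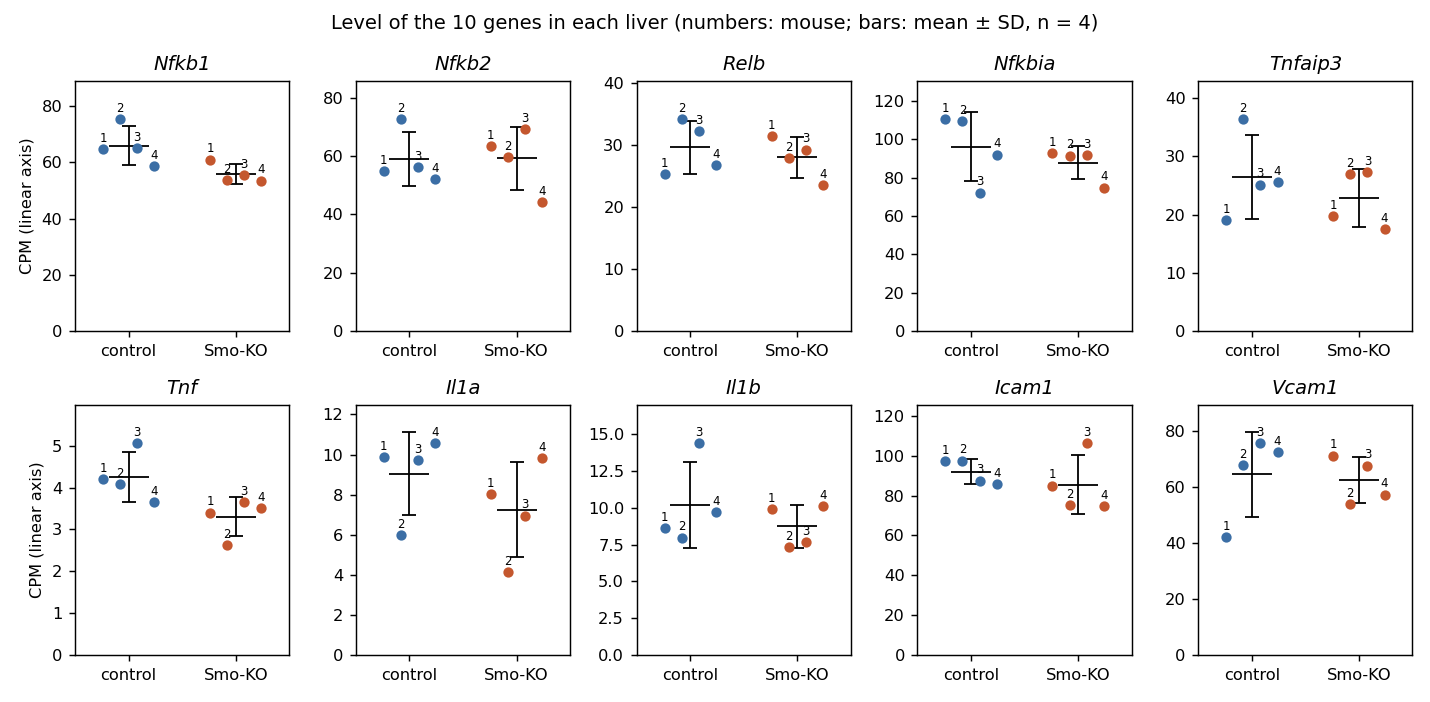
Level of each of the 10 genes (y axis, CPM, linear and starting at 0) in the 4 control (blue) and 4 Smo-KO (orange) livers; numbers give the mouse, the long bar is the mean and the error bar the SD (n = 4). In Tnf all 4 Smo-KO points lie below the control points, at 3.659 and 3.66 CPM in the nearest pair, and in the other 9 genes the groups overlap.

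The cytokine genes had the fewest reads of the 10. Tnf (chr17:35199381-35202007), the main cytokine of activated macrophages, had 37, 39, 51 and 37 reads across controls 1 to 4 and 33, 24, 30 and 33 reads across Smo-KO livers 1 to 4. After scaling, these were 4.20, 4.09, 5.07 and 3.66 CPM and 3.40, 2.62, 3.66 and 3.52 CPM. Every Smo-KO liver was below every control liver, which held for 1 of the 10 genes and for 4.34% of all genes tested; the nearest pair, Smo-KO mouse 3 and control mouse 4, stood at 3.659 and 3.66 CPM. The mean was 77.6% of the control mean, with a log2 fold change of -0.37 (SE 0.19, 95% interval -0.78 to 0.048) and edgeR's adjusted p was 0.415. Its coefficient of variation between mice was 13.9% in control and 14.1% in Smo-KO livers, where counting reads alone gives 15.6% and 18.3%, so its spread was no larger than the counting error.

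Interleukin 1 has 2 agonist genes side by side on chromosome 2. Il1a (chr2:129299610-129309972), whose product acts as an alarmin of dying cells, read 9.87, 5.98, 9.74 and 10.6 CPM across controls 1 to 4 and 8.04, 4.15, 6.95 and 9.81 CPM across Smo-KO livers 1 to 4. Mouse 2 was the lowest in each group, and Smo-KO mouse 4 lay above 2 controls. The log2 fold change was -0.32 (SE 0.24, 95% interval -0.85 to 0.21, edgeR's adjusted p 0.590), and it was -0.13 without Smo-KO mouse 2 and -0.50 without Smo-KO mouse 4. Il1b (chr2:129364570-129371139), which needs cleavage by caspase-1 before it is active, read 8.62, 7.97, 14.4 and 9.69 CPM across controls 1 to 4 and 9.90, 7.31, 7.68 and 10.1 CPM across Smo-KO livers 1 to 4. Control mouse 3 stood above the other 7 livers. With all mice the log2 fold change was -0.22 (95% interval -0.65 to 0.21), and without control mouse 3 it was 0.0043.

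The adhesion molecules are placed on endothelial cells, where they hold leukocytes. Icam1 (chr9:21015985-21028817), the ligand of the integrins LFA-1 and Mac-1, read 97.3, 97.6, 87.6 and 86.0 CPM across controls 1 to 4 and 85.1, 75.2, 106.5 and 74.9 CPM across Smo-KO livers 1 to 4. Smo-KO mice 1, 2 and 4 were below all controls and Smo-KO mouse 3 was above them all. The log2 fold change was -0.11 (95% interval -0.36 to 0.14, edgeR's adjusted p 0.716); without Smo-KO mouse 3 it was -0.23, with an adjusted p of 0.490 in the same test (0.490 to 0.912 over all alternatives), and without Smo-KO mouse 2 or 4 it was -0.053 and -0.052. Vcam1 (chr3:116109949-116129688), the ligand of the integrin VLA-4, read 42.2, 67.8, 75.8 and 72.4 CPM across controls 1 to 4 and 71.2, 53.9, 67.7 and 57.4 CPM across Smo-KO livers 1 to 4. Control mouse 1 was far below the others, and all 4 Smo-KO values lay inside the control range. Its log2 fold change was -0.048 (95% interval -0.40 to 0.30), and it ran from -0.20 without control mouse 1 to 0.043 without control mouse 3, with the sign also turned without control mouse 4 or Smo-KO mouse 2.

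**Figure D2:**
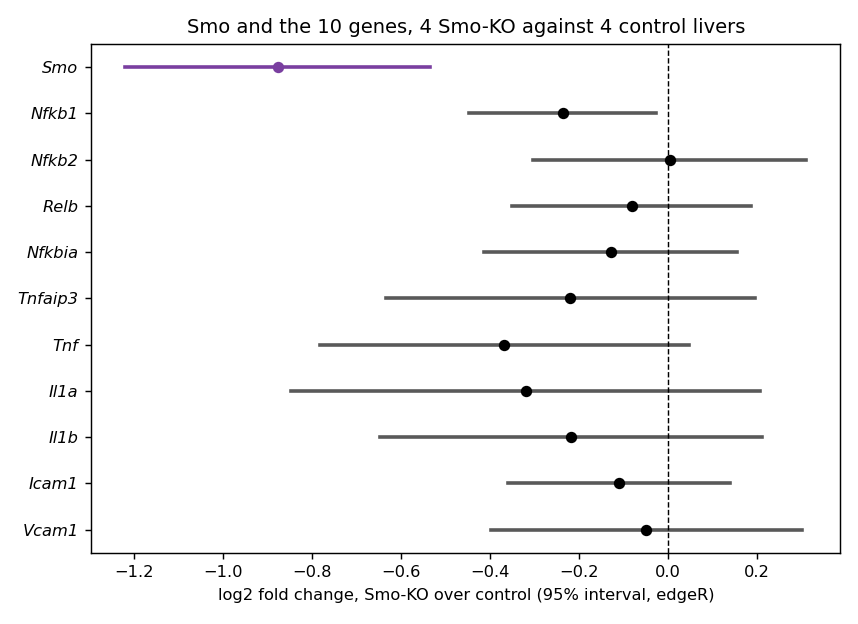
Log2 fold change of Smo (purple) and of the 10 genes (black), Smo-KO over control, with points for the estimate and lines for the 95% interval in edgeR's fit of 4 against 4 livers. The intervals of 9 genes include 0, that of Nfkb1 ends at -0.026, and that of Smo runs from -1.22 to -0.54.

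Intervals limit what size of change these livers could hide. For Nfkb2 and Vcam1 they reached 0.31 and 0.30 above 0 and -0.30 and -0.40 below it. The upper bounds of Tnf, Il1a and Il1b were 0.048, 0.21 and 0.21, and their lower bounds were -0.78, -0.85 and -0.65. A p that misses the threshold does not show that the groups were equal. The cytokine genes had 24 to 145 reads per liver.

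Levels were compared between genes only per length, as CPM per kilobase of exon. In control livers Nfkbia was the most abundant of the 10 genes at 59.7 ± 11.2 CPM per kilobase (SD, n = 4). Next came Icam1 at 21.1 ± 1.43 and Nfkb2 at 12.9 ± 2.03, and the ranges of these 3 genes over the 4 control livers did not overlap. Relb (7.63 ± 1.10), Vcam1 (7.28 ± 1.72), Nfkb1 (5.47 ± 0.576), Il1b (5.34 ± 1.53) and Il1a (4.58 ± 1.05) followed, with each range overlapping that of the next gene. Tnfaip3 (3.67 ± 0.998) and Tnf (2.60 ± 0.360) were the lowest, also overlapping at their edges. The order by mean level per kilobase was the same in Smo-KO livers. With the longest transcript in place of all exons, Nfkb1, whose exons sum to 12061 bases but whose longest transcript has 4149, ranked 3 of 10 in control and 5 of 10 in Smo-KO livers, with a range that overlapped those of Nfkb2 and Vcam1 in each group.

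The spread between mice of 1 group was larger than counting error in 9 of the 10 genes. The coefficient of variation was largest for Il1a in Smo-KO livers (32.8%, where counting gives 12.3%) and for Il1b in control livers (28.6% and 10.1%). Tnfaip3 varied 1.91-fold among control mice. The steadiest values were those of Nfkb1 in Smo-KO livers (6.24%) and Icam1 in control livers (6.75%).

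No liver was the highest or the lowest in all 10 genes. Control mouse 2 was the highest of all 8 livers in 4 of the 10 genes, Nfkb1, Nfkb2, Relb and Tnfaip3, but its Il1a was the second lowest. Control mouse 3 was the highest in 3 genes (Tnf, Il1b and Vcam1) and the lowest in Nfkbia. In Smo-KO mouse 4, 5 genes were the lowest of all livers (Nfkb1, Nfkb2, Relb, Tnfaip3 and Icam1), while Il1a and Il1b were above their mean over 8 livers. Smo-KO mouse 2 was the lowest in the 3 cytokines. Averaged over the 10 genes, the log2 deviation from the gene mean ran from -0.22 in Smo-KO mouse 2 to 0.16 in control mouse 3, and control mouse 1, at -0.025, lay below Smo-KO mice 1 and 3.

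**Figure D3:**
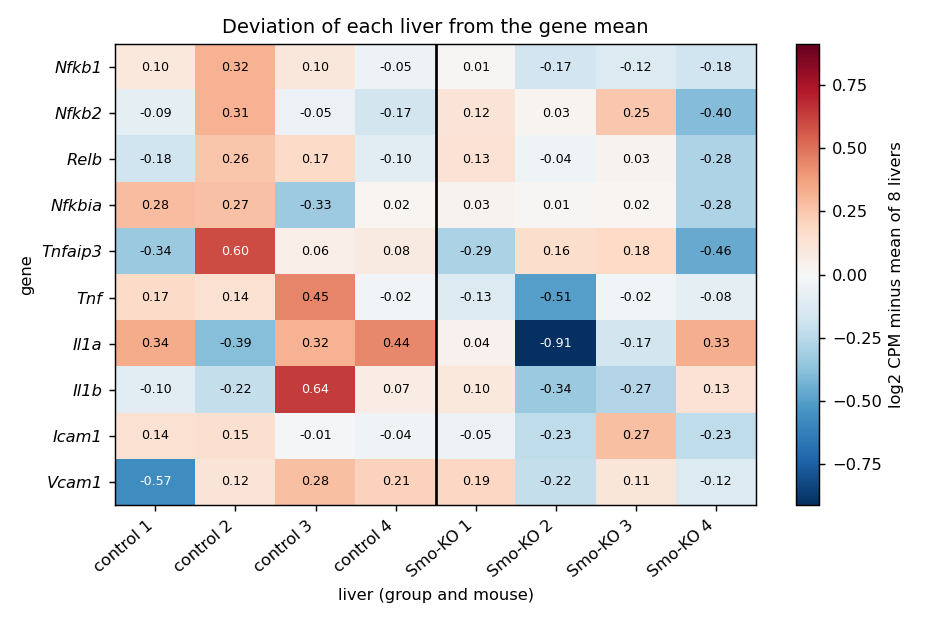
Log2 CPM of each of the 10 genes (rows) in each liver (columns; control left of the line, Smo-KO right) minus the gene's mean over 8 livers; red is higher and blue lower, with the value printed in each cell. Control mouse 2 is red in the subunits and Tnfaip3 and blue in Il1a and Il1b, and Smo-KO mouse 2 is blue in the 3 cytokines.

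The rest of the pathway was described with lists of other genes, read from the same fit, beside 7.15% of all genes lower and 6.7% higher at an unadjusted p under 0.05. In 8 lists with 132 different genes, 115 were tested; 18 were lower and 6 higher at that level, and after adjustment edgeR called 0 of them. DESeq2's Wald test called 2, both lower, where it called 1.26% of all genes tested. Over the 115 the median log2 fold change was -0.059, and 69 were lower on average, beside 50.1% of all genes tested. Every Smo-KO liver lay below every control liver in 5 of the 115, beside 4.34% of all genes tested. Every Smo-KO liver lay above every control liver in 2 of the 115, beside 3.03%.

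Of 7 other NF-kB and IkB family genes, with a median log2 fold change of -0.10, 1 was higher at an unadjusted p under 0.05 and 0 were lower. Rela, the transactivating subunit, averaged 141 ± 13.2 CPM in control and 128 ± 17.0 CPM in Smo-KO livers (SD, n = 4), and Rel averaged 11.8 ± 2.41 and 11.1 ± 1.43 CPM. The gene that was higher was Nfkbiz, an inducible nuclear IkB protein, with 28.1, 33.6, 21.4 and 26.0 CPM across controls 1 to 4 and 35.0, 32.0, 40.6 and 35.1 CPM across Smo-KO livers 1 to 4. Only Smo-KO mouse 2 lay inside the control range (log2 fold change 0.39, SE 0.13, edgeR's adjusted p 0.241). Nfkbid, of the same nuclear group, was higher in every Smo-KO than in every control liver, as were 3.03% of all genes, with 5.01 and 4.969 CPM in the nearest pair and means of 5.58 ± 0.416 against 4.64 ± 0.515 CPM (edgeR adjusted p 0.495).

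Among 26 kinases and adaptors (median log2 fold change -0.01), 3 were lower and 0 higher at an unadjusted p under 0.05. The kinase subunits Chuk (109 ± 8.27 and 119.5 ± 9.50 CPM) and Ikbkb (100.4 ± 13.5 and 104 ± 6.94 CPM) had adjusted p-values of 0.530 and 0.852 in edgeR's test. Traf1, an adaptor of TNF receptors that lymphocytes express, read 6.01, 6.501, 5.66 and 7.02 CPM across controls 1 to 4 and 4.74, 3.38, 4.02 and 3.94 CPM across Smo-KO livers 1 to 4. Its groups did not overlap, beside 4.34% of all genes lower in that way (log2 fold change -0.64, SE 0.17, edgeR adjusted p 0.158). Ticam1, the TRIF adaptor of Toll-like receptors, averaged 34.9 ± 5.15 and 24.9 ± 4.798 CPM (log2 fold change -0.49), and the third was Birc3 (-0.23).

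Feedback inhibitors outside the 10 genes held 1 gene that was lower at an unadjusted p under 0.05 among 13 tested, with a median log2 fold change of 0.02. This was Zfp36, whose product tristetraprolin destabilizes cytokine mRNAs such as that of Tnf. It read 199, 248, 85.8 and 90.0 CPM across controls 1 to 4 and 96.1, 80.5, 68.7 and 74.4 CPM across Smo-KO livers 1 to 4. Control mice 1 and 2 were far above the other 6 livers, so that the control SD was 80.7 CPM (log2 fold change -0.96, SE 0.29, edgeR's adjusted p 0.199, with log2 fold changes of -0.64 without control mouse 2 and -1.16 without control mouse 3). Il1rn, the IL-1 receptor antagonist, averaged 52.2 ± 9.76 and 46.9 ± 10.1 CPM.

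Of 16 tested receptors of these cytokines and of microbial patterns, with a median log2 fold change of -0.03, 1 was lower (Tlr9, log2 fold change -0.85) and 2 higher (Il1r1 and Tnfrsf11a) at an unadjusted p under 0.05. Il1r1, the signaling receptor of IL-1, read 33.5, 48.6, 39.7 and 49.95 CPM across controls 1 to 4 and 57.9, 72.1, 49.9 and 48.7 CPM across Smo-KO livers 1 to 4. Control mice 2 and 4 lay at the level of Smo-KO mice 3 and 4, and 4 of 4 Smo-KO livers were above the control mean (log2 fold change 0.41, SE 0.15, edgeR's adjusted p 0.263). Its ligand genes Il1a and Il1b had log2 fold changes of -0.32 and -0.22, as given above. The TNF receptors Tnfrsf1a (217 ± 8.14 and 195 ± 29.9 CPM) and Tnfrsf1b (71.5 ± 5.51 and 63.5 ± 6.39 CPM) had log2 fold changes of -0.16 and -0.17, which were -0.089 without Smo-KO mouse 3 and -0.11 without control mouse 2.

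Genes that process TNF and IL-1 included 1 lower and 1 higher of 8 at an unadjusted p under 0.05 (median log2 fold change -0.05). Adam17, the protease that sheds TNF from the cell surface, averaged 47.2 ± 5.88 and 38.6 ± 2.94 CPM (log2 fold change -0.29, edgeR's adjusted p 0.266). Rhbdf1, which encodes the iRhom1 partner of that protease, averaged 40.5 ± 4.20 and 52.7 ± 6.77 CPM (log2 fold change 0.38, edgeR adjusted p 0.197). Its groups did not overlap, beside 3.03% of all genes higher in that way.

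Other inflammatory cytokines were mostly too rare. Of 18, only 8 passed the filter on low counts (median log2 fold change -0.06), and 1 of these, Tnfsf10 (the TRAIL ligand; 67.1 ± 9.48 and 54.9 ± 5.48 CPM), was lower at an unadjusted p under 0.05. Il6 had 1, 4, 3 and 2 reads across controls 1 to 4 and 1, 1, 0 and 2 reads across Smo-KO livers 1 to 4. Csf2 had 0 reads in all 8 livers; 3 reads, the limit that a count of 0 allows, correspond to between 0.297 and 0.366 CPM, for counting error only. That limit does not cover how a symbol was annotated or counted: Ass1, a urea cycle gene that hepatocytes express abundantly, was listed at 0 reads in 7 of these livers. Csf1, the macrophage growth factor, was well above this at 38.4 ± 5.79 and 35.8 ± 8.03 CPM (edgeR's adjusted p 0.801).

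Among 12 tested adhesion molecules and integrins of leukocytes and endothelium, the median log2 fold change was -0.18. At an unadjusted p under 0.05, 4 were lower and 0 higher, with Itgb7, Itgal and the endothelial gene Pecam1 among them. Itgb7, an integrin chain of lymphocytes, averaged 8.82 ± 1.47 and 5.23 ± 1.01 CPM (log2 fold change -0.75, SE 0.19, edgeR's adjusted p 0.148 and 0.0399 in DESeq2's, 0.0399 to 0.270 over all alternatives). Its groups did not overlap, beside 4.34% of all genes lower in that way. Itgal, the LFA-1 chain that binds Icam1, averaged 70.4 ± 3.98 and 53.1 ± 10.6 CPM (log2 fold change -0.41, edgeR's adjusted p 0.212, 0.0461 without Smo-KO mouse 1 and up to 0.412 over the other alternatives).

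Other NF-kB targets, 25 of 27 tested with a median log2 fold change of -0.10, held 7 lower and 2 higher genes at an unadjusted p under 0.05. Irf1, a transcription factor that interferon-gamma also induces, read 126, 122, 104.5 and 120.5 CPM across controls 1 to 4 and 97.1, 72.2, 90.7 and 77.4 CPM across Smo-KO livers 1 to 4 (log2 fold change -0.49, SE 0.11, edgeR's adjusted p 0.132 and 0.0122 in DESeq2's, 0.0122 to 0.263 over all alternatives). Its groups did not overlap, beside 4.34% of all genes lower in that way. Cxcl10, a chemokine of T cells that interferons also induce, averaged 48.8 ± 20.2 and 21.8 ± 8.33 CPM (log2 fold change -1.17, SE 0.29, edgeR's adjusted p 0.146, 0.0442 with no filter on low counts and up to 0.291 over the other alternatives). The 2 higher genes were acute-phase genes, Saa1 (170 ± 43.4 and 291 ± 180 CPM, log2 fold change 0.77) and Lcn2 (796 ± 102 and 964 ± 44.7 CPM, log2 fold change 0.28). Saa1 stood at 541 CPM in Smo-KO mouse 2 and at 134, 190 and 297 CPM in the other Smo-KO livers, beside 136 to 233 CPM in controls, and its unadjusted p in DESeq2's fit across all genes was 0.107. Ccl2, the monocyte chemokine (22.4 ± 9.71 and 22.7 ± 7.62 CPM), and Sod2, the mitochondrial superoxide dismutase (195 ± 7.46 and 202 ± 13.6 CPM), had adjusted p-values of 0.992 and 0.838 in edgeR's test. The direction of Ccl2 turned with library totals in place of TMM scaling (log2 fold change 0.01 and -0.0018).

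**Figure D4:**
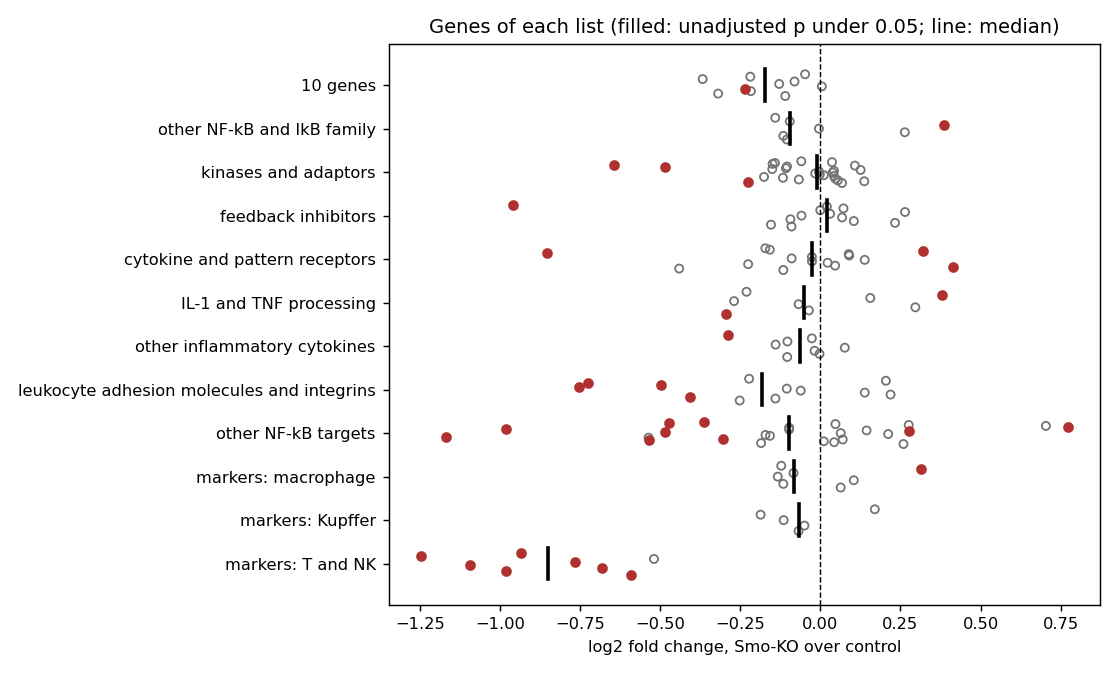
Log2 fold change, Smo-KO over control, of the tested genes of each list (1 point per gene, spread vertically for legibility); filled points had an unadjusted p under 0.05 in edgeR's test and the black line is the list's median. The 10 genes center on -0.17 with 1 filled point, and the T and NK cell markers on -0.85 with 7 of 8 filled.

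Cell type markers were read beside these values. The 7 macrophage markers summed to 1711 ± 203 CPM in control and 1733 ± 129 CPM in Smo-KO livers (SD, n = 4), with Mpeg1 the most abundant. On average 4 of the 7 were lower (Csf1r, Mpeg1, Cd14 and Ctss), with a median log2 fold change of -0.08 over the list, and 3 were higher. One of these, Lyz2, was higher at an unadjusted p under 0.05 (412 ± 37.9 and 512.5 ± 48.8 CPM, edgeR's adjusted p 0.219). Adgre1, which encodes the F4/80 antigen, averaged 50.6 ± 16.1 and 52.9 ± 5.74 CPM and Cd68 averaged 91.5 ± 4.20 and 98.4 ± 9.07 CPM. The 5 Kupffer cell markers, led by Cd5l, summed to 1068 ± 229 and 1034 ± 257 CPM, with 0 of 5 at an unadjusted p under 0.05, and Clec4f among them averaged 336 ± 71.0 and 324 ± 94.9 CPM.

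Of 11 T and NK cell markers, 8 were tested. All 8 were lower on average, 7 of them at an unadjusted p under 0.05 (7.15% of all genes), and after adjustment DESeq2 called 4 (1.26% of all genes) and edgeR 0. Their summed level was 59.5, 65.7, 53.2 and 74.0 CPM across controls 1 to 4 and 28.9, 25.1, 42.3 and 41.3 CPM across Smo-KO livers 1 to 4, with Nkg7 the most abundant and no marker at 0 in all livers. Il2rb (10.5 ± 2.99 and 4.44 ± 1.04 CPM) and Cd8a (9.87 ± 0.756 and 5.80 ± 1.09 CPM) had the smallest p-values of the list in edgeR's test. In DESeq2's test that of Nkg7 was smaller than that of Cd8a. The group means of Traf1, Itgb7, Itgal, Irf1 and Cxcl10 were lower as well. The part of these cells' markers in those differences, and in that of Tnf, was not tested.

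Neutrophil markers, of which 3 of 6 were tested and Ly6g was at 0 reads in every liver, summed to 23.6 ± 5.81 CPM in control and 24.3 ± 2.74 CPM in Smo-KO livers. Of the 3 tested, 2 were lower on average (median log2 fold change -0.14), and Csf3r, the most abundant, was higher. Monocyte markers summed to 111.5 ± 28.9 and 114 ± 21.0 CPM, and 2 of these 4 were lower on average. Cx3cr1 was higher at an unadjusted p under 0.05 (log2 fold change 0.47), while Ly6c2 averaged 8.76 ± 4.28 and 5.50 ± 2.07 CPM (log2 fold change -0.68, unadjusted p 0.0731 in edgeR's fit across all genes). With each mouse left out, the log2 fold change of Ly6c2 ran from -0.90 to -0.35, and its unadjusted p in DESeq2's fit of all mice was 0.0472. B cell markers summed to 8.77 ± 0.952 and 8.97 ± 1.78 CPM and dendritic cell markers to 47.7 ± 6.18 and 50.7 ± 6.88 CPM, with 0 genes at that level in either list. Sinusoidal endothelial markers summed to 234 ± 15.7 and 223 ± 62.5 CPM, and 0 of 6 were at that level. On average 5 of these 6 were lower, with a median log2 fold change of -0.26, and Stab1, the most abundant, was higher (68.8 ± 5.04 and 84.3 ± 18.9 CPM). Pecam1, an endothelial gene of the adhesion list, had a log2 fold change of -0.50 and an unadjusted p of 0.0256 in edgeR's fit across all genes. The part of these values in the levels of Icam1 and Vcam1 was not tested. Stellate cell markers summed to 665 ± 40.4 and 644 ± 92.2 CPM, with Col1a1 lower at an unadjusted p under 0.05 (log2 fold change -0.37) and 4 of the 7 higher on average (median log2 fold change 0.07). The 4 cholangiocyte markers summed to 21.9 ± 3.44 and 22.8 ± 5.01 CPM with 0 at that level. On average 3 of these 4 were higher (median log2 fold change 0.24), and Sox9, the most abundant, was lower (log2 fold change -0.19). Hepatocyte markers summed to 24950 ± 1852 and 23950 ± 740.5 CPM, led by Alb. Of these 6, 5 were tested, and 4 of them were lower on average (median log2 fold change -0.11), while Apoa1 was higher (0.18). Cps1 was lower at an unadjusted p under 0.05 (log2 fold change -0.33). Ass1, which was not tested, was listed with at most 1 read in any liver.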

How the data were processed

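Liver RNA of 8 mice was sequenced on an Illumina NovaSeq after NEBNext Ultra library preparation. For each liver the authors deposited raw whole-number counts per gene symbol. The submitters' processing notes name fastp, STAR 2.7.5, featureCounts 2.0.1 and GRCm38, while the files end in the special entries of htseq-count; annotation and strand setting are not given in the sources used here. Reads on no gene (7.56% to 9.68%) and on more than 1 gene (2.45% to 2.61%) stayed out of totals and tests.

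The tests used edgeR 4.0.16 under R 4.3.3, on 12977 genes kept by filterByExpr (TMM factors, a quasi-likelihood fit on genotype alone, p adjusted by Benjamini-Hochberg); standard errors follow from its F statistic. DESeq2 1.42.0 was the alternative test. The procedure was tested on simulated data with planted changes larger than those seen in the 10 genes. That test does not cover changes of their size. Libraries within a group differed by more than sampling noise (chi-square 7.76 to 17.5 per degree of freedom). The p-values measure the spread between these mice. The 10 genes, lists and tests were chosen with earlier results of these data known. Named were Smo, the 10 genes, 14 fixed genes and the 2 of smallest p per list; others named beside counts of 5 or fewer were chosen after their values were seen. A gene in 1 of these counts is not reported here. Alternatives were RLE factors, library totals, DESeq2, other filters, the replicate number as a block, and each mouse left out. The read limits cover counting error only.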

Additional observations from a re-analysis of the deposited data

Results flagged for a closer look

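For 62 named genes each genotype was examined on its own, which makes 124 sets of 4 livers. In 4 of these sets 1 liver stood far away from the rest, while about 6.2 such sets would arise by chance (1 in 20). Among the 10 genes, Nfkbia was 74.8 CPM in Smo-KO mouse 4, against 91.5 to 92.9 CPM in the other Smo-KO mice; control mouse 3 was lower still. Sod2 was 206 CPM in control mouse 1, against 191 to 192 CPM. Cd8a was 11 CPM in that same mouse, against 9.44 to 9.54 CPM. Sox9, a cholangiocyte marker, was 13.7 CPM in Smo-KO mouse 1, against 8.94 to 9.76 CPM.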

How the results depend on the processing

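None of the 10 genes had an adjusted p under 0.05 with any setting run, and between 8 and 10 of them were lower on average in every setting. Over all genes the count of calls was 0 in edgeR's test, 163 in DESeq2's, 61 with no filter and 8 with the replicate number as a block, and it ran from 0 to 78 with each mouse left out, the highest without Smo-KO mouse 1. Over the 8 pathway lists it was 0, 2 in DESeq2's test, 1 with no filter, and 0 to 2 with each mouse left out.

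Of the 10 genes, 1 had an unadjusted p under 0.05, 2 with the replicate number as a block (Il1a besides Nfkb1), and 0 to 1 with each mouse left out; without Smo-KO mouse 3 the gene was Icam1 and not Nfkb1. Same-numbered mice deviated together with correlations of 0.104, 0.187, 0.0611 and 0.113, and since the third was weaker than the level asked of every pair, the numbers were not taken as pairs, although control mice 2, 3 and 4 correlated best with the Smo-KO mouse of their own number. The sign of Nfkb2 turned with library totals (-0.0019) and with the block (-0.0011), and that of Ccl2 with library totals (-0.0018). With each mouse left out, log2 fold changes that crossed 0 ran from -0.31 to 0.0043 (Il1b), -0.20 to 0.043 (Vcam1), -0.080 to 0.12 (Nfkb2), -0.18 to 0.043 (Rel), -0.24 to 0.32 (Ccl2), -0.084 to 0.30 (Adgre1), -0.25 to 0.076 (Clec4f), -0.27 to 0.0031 (Csf1), -0.26 to 0.12 (S100a9) and -0.43 to 0.11 (Ms4a1). The cause was not tested. Of the single-gene values under alternatives, 817 kept direction and call, 24 turned in sign and 11 newly passed the threshold. Depth limits Tnf, whose coefficient of variation between control mice (13.9%) was below that of counting alone (15.6%), and Il6, with at most 4 reads.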
